A study of Homo sapiens with 15 samples.

Results

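The comparison set 3 libraries of the glioma line U251 carrying the short hairpin RNA 1812 against 3 libraries of the glioma line U87 carrying the same hairpin, 6 of 15 RNA-seq libraries in the series. The libraries were picked by their labelled names, and no control library entered the fit. The comparison itself was chosen with earlier results of these data known. U251-1812 and U87-1812 below stand for these groups. Both lines are established human glioma cell lines, and both were stably transfected with a hairpin against LAMP2A, so the hairpin is shared by every library compared. The labels name no clone, no promoter for the hairpin, no control hairpin and no passage number. The other groups, 3 libraries each, are U251 with hairpin 1813, and U251 and U87 libraries labelled wild type, here called U251 control and U87 control. Whether the 3 libraries of a group came from separate cultures is not stated, so p-values measure the spread between libraries, which may be technical.

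Established glioma lines differ in origin, karyotype and differentiation state, so that a comparison of lines carrying one construct also compares their backgrounds. LAMP2 encodes a lysosomal membrane protein, and its splice form LAMP2A is the receptor through which chaperones deliver single proteins into the lysosome, a route called chaperone-mediated autophagy. Interferons act on a cell through STAT and IRF factors, which bind short repeated GAAA elements in the promoters of antiviral genes. SOX, HOX and IRX factors record the position and stage from which neural cells derive.

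Total counts were 14711011, 14002652 and 14163535 in U251-1812 and 16851461, 18924072 and 14763974 in U87-1812. Libraries of one group correlated at r 0.983 to 0.993 across genes on the log scale, and libraries of the 2 lines at 0.776 to 0.789. Replicate 1 of U87-1812 stood further from its group than any other of the 6 libraries, so named genes whose fold change moved by over 1.5 times without it are given that way too. Control replicate 1 of each line stood apart from control replicates 2 and 3. MALAT1, a nuclear RNA, was at 7.64 FPKM in U251 control replicate 1 and at 38.4 and 44.3 FPKM in replicates 2 and 3, and at 3.70 FPKM in U87 control replicate 1 and 28.4 and 31.9 FPKM in replicates 2 and 3. NEAT1, another nuclear RNA, was lower in control replicate 1 of both lines as well. MALAT1 was at 7.72, 9.51 and 10.04 FPKM in U251-1812 and at 5.54, 3.76 and 6.30 FPKM in U87-1812, without overlap. Genes of lincRNA type held 0.398% to 0.415% of counts in U251-1812 and 0.284% to 0.338% in U87-1812. The part of these differences in the line comparison, and in comparisons with controls, was not tested. Levels are FPKM (counts scaled to exon length and library total), rescaled by TMM factors over all 15 libraries, and fold changes are U251-1812 over U87-1812 from edgeR. Calls needed an adjusted p below 0.05 together with a change of 2-fold or more.

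Of 15407 genes tested, 2772 were called higher in U251-1812, which is 18.0% of them, and 2438 lower, which is 15.8%. Counts of list members below are to be read against these shares and against the median of all tested genes, a log2 fold change of 0.01. Differences were large: 1509 genes were at least 4-fold higher and 1126 at least 4-fold lower, and 616 and 400 genes passed 32-fold. Among protein-coding genes 32.0% were called, and among lincRNA genes 53.7%.

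LAMP2 (ENSG00000005893, chromosome X, 120426148 to 120469365, minus strand), the gene both hairpins address, was slightly higher in the U251 cells. It had 33.6, 33.4 and 34.9 FPKM in U251-1812, against 27.3, 27.3 and 30.7 FPKM in U87-1812, and the groups did not overlap. Means were 33.9 ± 0.799 FPKM and 28.4 ± 1.98 FPKM (SD, n = 3 each; log2 fold change 0.26, SE 0.095, adjusted p 0.0261). An exact two-sided permutation test on log2(FPKM + 0.1) gave p = 0.1, the smallest that 20 arrangements of 3 against 3 libraries can give. The adjusted p passed 0.05 in the fit of all 6 libraries but not without U87-1812 replicate 2, U251-1812 replicate 2 or U251-1812 replicate 3, where it was 0.0633 to 0.0932. In controls the lines stood further apart, at 73.8 FPKM in U251 control and 27.7 FPKM in U87 control (log2 fold change 1.43, adjusted p 0.00263), and the difference of the line differences passed with all 12 libraries (log2 difference -1.19, SE 0.23, adjusted p 0.0248). That call was lost (adjusted p 0.0546 to 0.086) without any one of U87-1812 replicates 2 and 3, U251-1812 replicates 1 to 3 and U251 control replicates 2 and 3. These values sum all splice forms, so LAMP2A cannot be read on its own.

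SOX2, CXCL8, LAMA4 and EFEMP1 showed 4 different patterns. SOX2 (chromosome 3, 181711925 to 181714436), a transcription factor of neural stem cells, had 42.7, 40.6 and 39.0 FPKM in U251-1812, against 0, 0.140 and 0.0584 FPKM in U87-1812 (log2 fold change 9.15, SE 0.28, adjusted p 6.63e-11). It was at 39.0 FPKM or more in each U251 library and at or near 0 in U87, and in controls the difference was as wide (log2 fold change 9.90, adjusted p 2.18e-05). CXCL8 (ENSG00000169429, chromosome 4, 73740541 to 73743716, plus strand), the neutrophil chemokine interleukin 8, had 254, 297 and 296 FPKM in U251-1812, against 43.4, 33.8 and 33.8 FPKM in U87-1812, so all U251 libraries lay above all U87 libraries (log2 fold change 2.94, SE 0.13, adjusted p 1.24e-09). In controls CXCL8 averaged 83.1 FPKM in U251 control and 60.9 FPKM in U87 control, which did not pass (log2 fold change 0.45, adjusted p 0.177), and the line difference was larger with the hairpin (log2 difference 2.47, SE 0.28, adjusted p 0.00298).

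LAMA4 (ENSG00000112769, chromosome 6, 112107931 to 112254939, minus strand), the laminin alpha 4 chain of vessel basement membranes, had 7.19, 7.77 and 8.22 FPKM in U251-1812, against 8.82, 7.94 and 7.50 FPKM in U87-1812. The groups overlapped and the test did not pass (log2 fold change -0.06, SE 0.10, adjusted p 0.637). Leaving out U87-1812 replicate 1 gave a log2 fold change of 0.0047 (adjusted p 0.969). In controls LAMA4 averaged 11.2 FPKM in U251 control and 1.39 FPKM in U87 control (log2 fold change 3.02, adjusted p 6.84e-05), and the line difference was smaller with the hairpin (log2 difference -3.10, SE 0.20, adjusted p 3.42e-05). EFEMP1 (ENSG00000115380, chromosome 2, 55865967 to 55924139, minus strand), the matrix glycoprotein fibulin-3, had 35.2, 28.5 and 28.4 FPKM in U251-1812, against 13.8, 14 and 14.1 FPKM in U87-1812, without overlap (log2 fold change 1.14, SE 0.11, adjusted p 1.55e-06). U87 control held far less of it than U87-1812, with 46.7 FPKM in U251 control and 0.70 FPKM in U87 control. The line difference was again smaller with the hairpin (log2 difference -4.94, SE 0.60, adjusted p 0.00402). Its size depended on the controls used. The log2 difference was -3.88 with control replicate 1 of each line alone and -6.06 without both control libraries numbered 1.

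**Figure D1:**
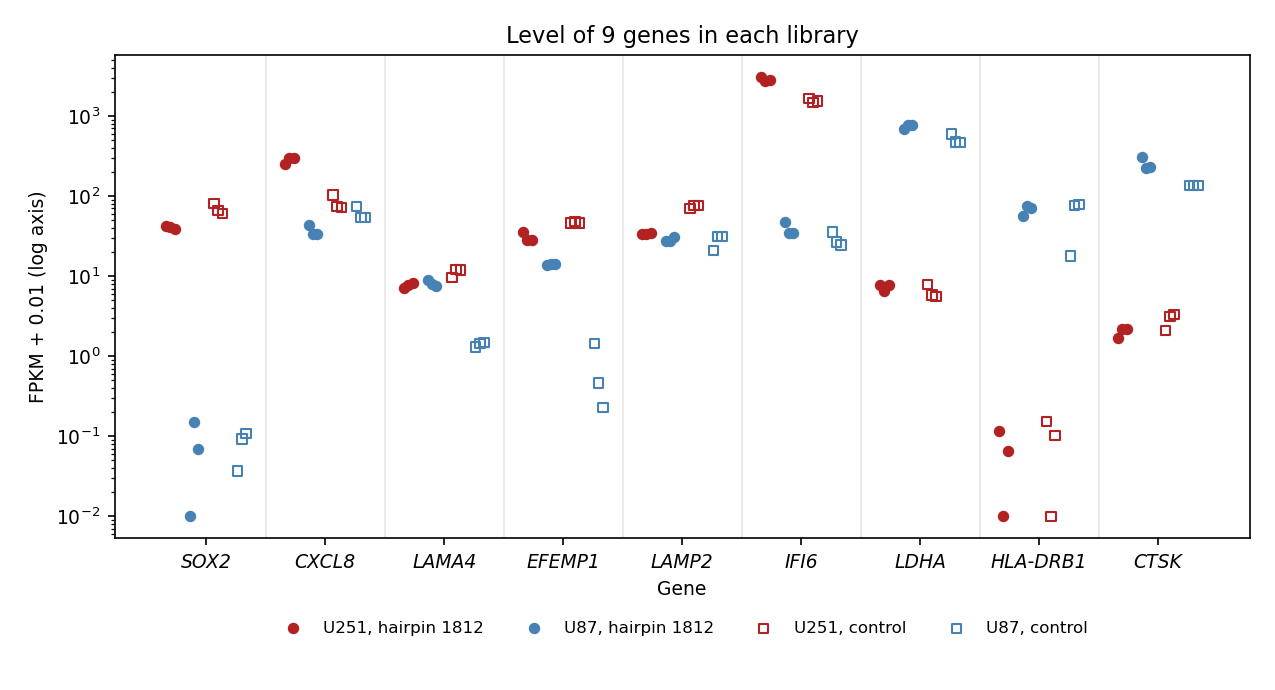
Level of 9 genes in each library, as FPKM + 0.01 on a log axis, with 3 points per group: U251 (red) and U87 (blue), with hairpin 1812 (filled circles) and in controls (open squares). With the hairpin LAMA4 overlaps between the lines and EFEMP1 is higher in U251, and both are further apart in controls. SOX2, IFI6, LDHA, HLA-DRB1 and CTSK keep the lines apart in both settings.

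Interferon-stimulated genes were higher in U251-1812 almost throughout. Of the list, 38 of 44 tested members were called higher and 1 lower, with a median log2 fold change of 3.19. Their summed level was 6149 to 6960.0 FPKM in U251-1812 and 355 to 425 FPKM in U87-1812, with no overlap. In bulk RNA fewer cells with a transcript and less of it per cell cannot be told apart. The control libraries gave 35 higher and 1 lower of 43, beside a background of 13.4% called higher and 13.5% called lower of 15929 genes between controls.

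Among the genes with the largest gains in FPKM were IFI6, BST2 and ISG15, and their promoters show the element that interferon-activated factors bind. The sequences below run from 250 bases before to 50 bases after the start site (RefSeq, GRCh38.p14), with each match to GAAANNGAAA on either strand in capitals.
IFI6 (chr1:27672143-27672442, - strand): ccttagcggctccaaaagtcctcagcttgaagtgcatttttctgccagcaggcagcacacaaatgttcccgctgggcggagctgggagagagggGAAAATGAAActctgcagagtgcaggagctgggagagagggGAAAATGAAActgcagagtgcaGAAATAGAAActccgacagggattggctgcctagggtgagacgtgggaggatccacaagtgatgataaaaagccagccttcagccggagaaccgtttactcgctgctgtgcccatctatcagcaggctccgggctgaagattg
BST2 (chr19:17405581-17405880, - strand): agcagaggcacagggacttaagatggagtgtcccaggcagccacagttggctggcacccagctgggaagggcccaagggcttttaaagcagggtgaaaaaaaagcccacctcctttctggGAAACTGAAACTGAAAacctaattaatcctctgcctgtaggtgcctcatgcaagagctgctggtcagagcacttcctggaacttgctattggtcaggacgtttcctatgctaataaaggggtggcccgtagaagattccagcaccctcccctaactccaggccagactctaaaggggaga
ISG15 (chr1:1013247-1013546, + strand): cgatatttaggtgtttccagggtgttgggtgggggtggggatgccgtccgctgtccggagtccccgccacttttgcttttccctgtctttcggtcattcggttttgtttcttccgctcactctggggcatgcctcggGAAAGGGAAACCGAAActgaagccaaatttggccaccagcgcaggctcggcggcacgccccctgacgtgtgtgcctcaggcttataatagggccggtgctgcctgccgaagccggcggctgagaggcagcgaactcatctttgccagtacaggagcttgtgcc
These windows hold 3, 2 and 2 matches, and overlapping matches merge into longer runs of capitals. The letters occurred in 22 of 35 promoters of the list that could be matched by symbol (62.9%), in 21 of 31 promoters of its called members (67.7%), and in 1255 of 35116 promoters overall (3.57%). A match is a description of the sequence and shows no binding in these cells.

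IFI6, a mitochondrial protein that restrains cell death, had 3062, 2716 and 2794 FPKM in U251-1812, against 47.8, 34.4 and 34.7 FPKM in U87-1812 (log2 fold change 6.20, SE 0.17, adjusted p 2.54e-11). BST2, the tetherin that holds budding virus at the membrane, had 721, 649 and 653 FPKM in U251-1812, against 2.57, 1.07 and 1.80 FPKM in U87-1812 (log2 fold change 8.56, SE 0.21, adjusted p 1.86e-11). ISG15, a ubiquitin-like modifier, had 704, 667 and 654 FPKM in U251-1812, against 13.7, 9.43 and 9.22 FPKM in U87-1812 (log2 fold change 5.97, SE 0.16, adjusted p 2.5e-11). In all 3 genes the lowest U251 library lay far above the highest U87 library.

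RSAD2, the antiviral enzyme viperin, had 53.6, 57.6 and 50.1 FPKM in U251-1812, against 0.0952, 0.0498 and 0.109 FPKM in U87-1812 (log2 fold change 9.32, SE 0.19, adjusted p 7.91e-12). IFI27 had 236, 188 and 207 FPKM in U251-1812, against 0.496, 0.255 and 0.407 FPKM in U87-1812 (log2 fold change 9.11, SE 0.20, adjusted p 1.24e-11). IFITM1, which blocks viral entry, had 369, 345 and 359 FPKM in U251-1812, against 4.87, 5.03 and 6.89 FPKM in U87-1812 (log2 fold change 6.01, SE 0.14, adjusted p 1.62e-11). CXCL10, a T cell chemokine, had 12.8, 5.98 and 6.62 FPKM in U251-1812, against 0 FPKM in each library of U87-1812, at least 155-fold higher taking 3 counts for the whole U87 group as the limit of detection.

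The difference was not uniform over the list. Members that were not called were chosen for mention after their values were seen: STAT2 averaged 13.5 FPKM in U251-1812 and 13 FPKM in U87-1812 (adjusted p 0.649), and IRF1, IFI16, IFITM2 and TRIM22 passed the p threshold with log2 fold changes of 0.40, 0.70, -0.79 and -0.60. EPSTI1, also mentioned after its values were seen, was the member called lower, at 0.0137 FPKM in U251-1812 and 0.219 FPKM in U87-1812, both low levels. Among interferon genes themselves, also chosen after their values were seen, IFNB1 had 2.08, 2.05 and 1.05 FPKM in U251-1812, against 0 FPKM in each library of U87-1812 (adjusted p 4.34e-05), and IFNA2, IFNA4 and IFNA8 had no count in either group. IFNA1, IFNE and IFNW1 had 4, 9 and 1 counts over the U251-1812 group and 0 in U87-1812, too few to be tested. These interferon genes lie on chromosome 9 between FOCAD and MTAP, in a block where U87-1812 had almost no counts.

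MHC class I genes, which present peptides from inside the cell, followed in part: 11 of 21 tested members were called higher and 1 lower, with a median log2 fold change of 1.02. B2M, the common light chain, had 882, 771 and 784 FPKM in U251-1812, against 397, 402 and 408 FPKM in U87-1812 (log2 fold change 1.02, SE 0.12, adjusted p 7.17e-06). TAP1, a subunit of the peptide transporter, had 77.3, 63.9 and 55.9 FPKM in U251-1812, against 11.4, 9.35 and 7.81 FPKM in U87-1812 (log2 fold change 2.79, SE 0.16, adjusted p 1.12e-08). HLA-F had 25.2, 21.1 and 19.7 FPKM in U251-1812, against 1.40, 1.28 and 1.43 FPKM in U87-1812 (log2 fold change 4.02, SE 0.14, adjusted p 1.69e-10). TAPBPL, a peptide editor, was the member called lower (log2 fold change -2.75, SE 0.26, adjusted p 1.18e-06). No U251 library overlapped a U87 library at these 4 genes.

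MHC class II genes, which present peptides taken up from outside and are normally restricted to immune cells unless induced, went the other way. On this list 0 of 11 tested members were called higher and 11 lower, with a median log2 fold change of -7.29. Their summed level was 2.40 to 3.01 FPKM in U251-1812 and 173 to 241 FPKM in U87-1812, and the U87 libraries thus held nearly all of it. CIITA, the co-activator that switches the class II genes on, and CD74, the invariant chain, are given here by choice after their values were seen. CIITA averaged 0.0455 FPKM in U251-1812 and 1.18 FPKM in U87-1812 (log2 fold change -4.69, SE 0.23, adjusted p 3.53e-09). HLA-DRB1 had 0.105, 0 and 0.0550 FPKM in U251-1812, against 57.1, 75.2 and 70.8 FPKM in U87-1812, a U87 over U251 ratio of 1244-fold (95% counting interval 426 to 6036). HLA-DQB1 had 0, 0.0141 and 0.0138 FPKM in U251-1812, against 4.93, 6.64 and 5.76 FPKM in U87-1812, a ratio of 638-fold (95% counting interval 176 to 5270.0). HLA-DPA1 had 0.325, 0.360 and 0.270 FPKM in U251-1812, against 8.64, 11.8 and 10.9 FPKM in U87-1812 (log2 fold change -5.02, SE 0.18, adjusted p 2.08e-10). CD74 averaged 0.221 FPKM in U251-1812 and 42.4 FPKM in U87-1812 (log2 fold change -7.57, SE 0.38, adjusted p 4.55e-09). HLA-DRB1 and HLA-DRB5 are near-identical, so the split of reads between them is uncertain, and intervals cover counting error only.

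Class II promoters, and some class I promoters, carry an inverted CCAAT element known as the Y box. Its letters CTGATTGG, searched on both strands, occurred in 4 of 11 promoters of the class II list (36.4%) and in 1393 of 35116 overall (3.97%). On the class I list they occurred in 4 of 18 promoters (22.2%), B2M and HLA-F among them. In B2M and the class II matches the letters lay on the strand of the gene. In HLA-F and the other class I matches they lay on the opposite strand, as a direct CCAAT. HLA-DRB1 and HLA-DQB1, 2 of the 4 class II matches, are genes with values above, and their windows are shown with the match in capitals (RefSeq, GRCh38.p14).
HLA-DRB1 (chr6:32589799-32590098, - strand): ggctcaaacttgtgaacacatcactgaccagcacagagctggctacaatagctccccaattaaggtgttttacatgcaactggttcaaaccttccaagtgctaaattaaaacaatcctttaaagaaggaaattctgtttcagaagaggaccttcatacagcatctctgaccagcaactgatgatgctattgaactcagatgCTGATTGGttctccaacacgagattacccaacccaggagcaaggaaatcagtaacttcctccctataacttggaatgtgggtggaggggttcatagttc
HLA-DQB1 (chr6:32666608-32666907, - strand): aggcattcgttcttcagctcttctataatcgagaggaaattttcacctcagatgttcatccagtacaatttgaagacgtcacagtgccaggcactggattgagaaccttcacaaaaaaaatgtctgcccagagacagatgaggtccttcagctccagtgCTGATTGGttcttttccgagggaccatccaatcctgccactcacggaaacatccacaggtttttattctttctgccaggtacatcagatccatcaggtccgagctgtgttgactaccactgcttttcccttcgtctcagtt
No promoter of the class II list held GAAANNGAAA, which is a statement about these windows alone.

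**Figure D2:**
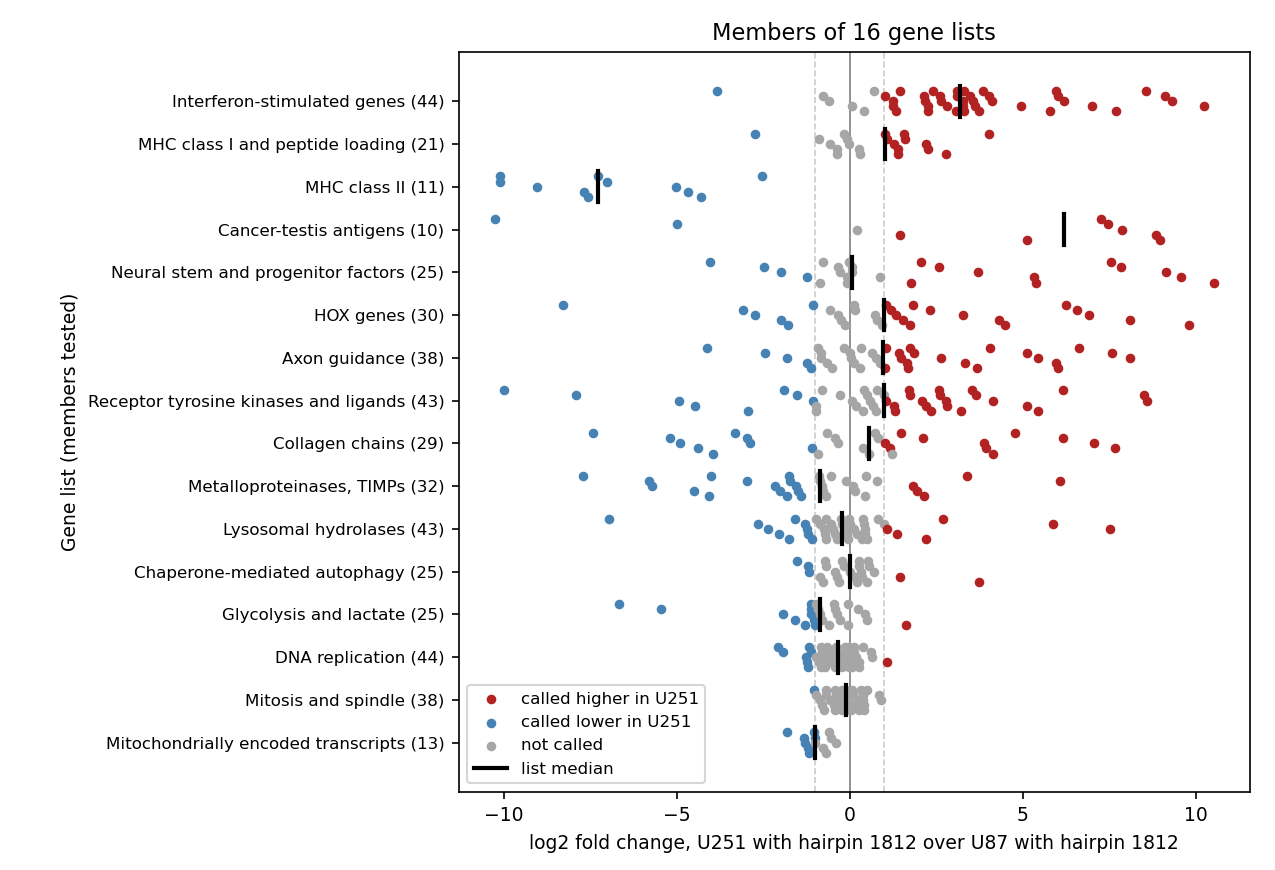
Log2 fold change of each tested member of 16 gene lists, U251-1812 over U87-1812, with list medians as black bars, called members in red (higher) and blue (lower), and dashed lines at a log2 fold change of 1 and -1. Interferon-stimulated genes lie mostly to the right with a median of 3.19, MHC class II genes all to the left with a median of -7.29, and mitosis genes near 0.

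Neural stem and progenitor factors were called higher more than the 18.0% of all genes, though the list median was near 0 (11 of 25 tested members were called higher and 4 lower, with a median log2 fold change of 0.07). The share called lower was near the 15.8% of all genes. SOX3, a close relative of SOX2, had 22.4, 21.4 and 18.8 FPKM in U251-1812, against 0, 0.0282 and 0 FPKM in U87-1812, a ratio of 2014-fold (95% counting interval 361 to 79600.0). SOX9, a factor of glial fate, had 16.3, 18.1 and 17.6 FPKM in U251-1812, against 1.32, 1.26 and 1.40 FPKM in U87-1812 (log2 fold change 3.72, SE 0.12, adjusted p 1.16e-10). POU3F2, a neural POU factor, had 7.25, 5.71 and 5.58 FPKM in U251-1812, against 0.184, 0.0963 and 0.165 FPKM in U87-1812 (log2 fold change 5.39, SE 0.24, adjusted p 1.27e-09). HMGA2, a chromatin protein of early progenitors, was higher in U87, with 6.28, 7.61 and 8.28 FPKM in U251-1812, against 34.3, 25.8 and 27.8 FPKM in U87-1812 (log2 fold change -1.98, SE 0.14, adjusted p 7.04e-08). POU2F2 and ZIC1 were also called lower (log2 fold changes -4.05 and -1.23), POU2F2 at -3.44 without U87-1812 replicate 1. The controls gave 14 higher and 6 lower of 28, with a median of 1.23.

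Astrocyte markers were called in both directions: 3 of 15 tested members were called higher and 4 lower, with a median log2 fold change of -0.10. The controls gave 9 higher and 5 lower of 16, with a median of 1.13, and 4 members had a called difference of the line differences, GFAP among them, whose call was lost when any one of 9 of the 12 libraries was left out. The summed level was 835 to 937 FPKM in U251-1812 and 1332 to 1482 FPKM in U87-1812, without overlap. GFAP, the astrocyte intermediate filament, was low in both, with 2.32, 1.33 and 1.04 FPKM in U251-1812, against 0.114, 0.141 and 0.0914 FPKM in U87-1812 (log2 fold change 3.74, SE 0.33, adjusted p 6.82e-07). GJA1, the gap junction protein connexin 43, had 19.5, 22.6 and 22.5 FPKM in U251-1812, against 37.1, 93 and 109 FPKM in U87-1812 (log2 fold change -1.88, SE 0.29, adjusted p 9.39e-05), with replicate 1 of U87-1812 below the other two. CLU and GLUL were called lower too (log2 fold changes -2.53 and -1.36), and ID4, an inhibitor of helix-loop-helix factors, was called higher (log2 fold change 5.73, SE 0.30, adjusted p 5.95e-09, and log2 fold change 6.38 without U87-1812 replicate 1).

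HOX genes, which specify position along the body axis, were on balance higher in U251-1812 (15 of 30 tested members were called higher and 6 lower, with a median log2 fold change of 0.99). HOXC10 had 19.8, 19.97 and 21.2 FPKM in U251-1812, against 1.03, 1.09 and 0.928 FPKM in U87-1812 (log2 fold change 4.32, SE 0.14, adjusted p 1.02e-10). HOXB7 had 20.8, 20.1 and 21.1 FPKM in U251-1812, against 0.887, 0.812 and 1.11 FPKM in U87-1812 (log2 fold change 4.47, SE 0.17, adjusted p 4.75e-10). HOXB9 had 15.6, 11.4 and 10.6 FPKM in U251-1812, against 0.174, 0.0455 and 0.0851 FPKM in U87-1812 (log2 fold change 6.92, SE 0.31, adjusted p 1.66e-09, and log2 fold change 7.56 without U87-1812 replicate 1). Within the same HOXB cluster HOXB2 went the other way, with 0.110, 0.0295 and 0 FPKM in U251-1812, against 19.9, 14.8 and 13.8 FPKM in U87-1812 (log2 fold change -8.29, SE 0.37, adjusted p 1.45e-09), as did HOXB4 (log2 fold change -3.09). By cluster, 4 genes of A, 4 of B, 4 of C and 3 of D were called higher, and 1, 3, 1 and 1 lower.

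Other developmental regulators marked the lines in both directions (15 of 42 tested members were called higher and 14 lower, with a median log2 fold change of -0.19). IRX1 (chromosome 5, 3595832 to 3601403), an Iroquois patterning factor, had 9.68, 8.98 and 6.50 FPKM in U251-1812, against 0 FPKM in each library of U87-1812, at least 269-fold higher. FOXD1 had 0, 0.0481 and 0 FPKM in U251-1812, against 26.9, 25 and 22.4 FPKM in U87-1812, a U87 over U251 ratio of 1595-fold (95% counting interval 441 to 13180.0). FOXL1 had 0.386, 0.261 and 0.445 FPKM in U251-1812, against 36.7, 31.9 and 33.3 FPKM in U87-1812 (log2 fold change -6.53, SE 0.16, adjusted p 1.87e-11). IRX3 averaged 2.68 FPKM in U251-1812 and 13.5 FPKM in U87-1812 (log2 fold change -2.32, SE 0.13, adjusted p 1.3e-08). None of these groups overlapped.

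Regulators of mesenchymal transition were more often lower (1 of 24 tested members were called higher and 6 lower, with a median log2 fold change of -0.52). SNAI2, the repressor Slug, had 8.69, 9.96 and 10.2 FPKM in U251-1812, against 33.5, 44.1 and 45.0 FPKM in U87-1812 (log2 fold change -2.08, SE 0.13, adjusted p 3.85e-08). FOXC2 averaged 0.0158 FPKM in U251-1812 and 8.23 FPKM in U87-1812, a U87 over U251 ratio of 534-fold (95% counting interval 147 to 4413). FOXC1 was the member called higher, at 4.70 FPKM in U251-1812 and 1.87 FPKM in U87-1812 (log2 fold change 1.33, SE 0.22, adjusted p 0.000193).

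Axon guidance genes were called higher more than the background share (19 of 38 tested members were called higher and 5 lower, with a median log2 fold change of 0.95). SEMA3A, a secreted repellent, had 13.6, 10.9 and 11.7 FPKM in U251-1812, against 0.264, 0.146 and 0.150 FPKM in U87-1812 (log2 fold change 6.01, SE 0.20, adjusted p 1.12e-10). UNC5C, a netrin receptor, averaged 1.31 FPKM in U251-1812 and 0.00367 FPKM in U87-1812. SEMA5A went the other way, with 0.325, 0.246 and 0.297 FPKM in U251-1812, against 5.39, 5.16 and 4.94 FPKM in U87-1812 (log2 fold change -4.14, SE 0.14, adjusted p 1.2e-10).

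Among neuronal genes 6 of 18 tested members were called higher and 6 lower, with a median log2 fold change of 0.29. NEFL, the light neurofilament chain, had 60.4, 72.4 and 66.6 FPKM in U251-1812, against 0.0326, 0.0448 and 0.186 FPKM in U87-1812 (log2 fold change 9.62, SE 0.26, adjusted p 2.54e-11). BASP1, a growth cone protein, had 9.62, 11.4 and 11.5 FPKM in U251-1812, against 166, 182 and 184 FPKM in U87-1812 (log2 fold change -4.02, SE 0.12, adjusted p 3.8e-11), so NEFL marked U251 and BASP1 marked U87. SNAP25 and GAP43 were called lower (log2 fold changes -2.35 and -1.93), CNTN1 and L1CAM higher (8.78 and 4.84), L1CAM at 6.26 without U87-1812 replicate 1.

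Of cadherins and protocadherins 12 of 24 tested members were called higher and 7 lower, with a median log2 fold change of 0.99. CDH4, or R-cadherin, had 18.8, 14.1 and 12.2 FPKM in U251-1812, against 0.239, 0.102 and 0.0390 FPKM in U87-1812 (log2 fold change 6.86, SE 0.32, adjusted p 2.62e-09, and log2 fold change 7.66 without U87-1812 replicate 1). PCDH7 averaged 1.94 FPKM in U251-1812 and 0.0574 FPKM in U87-1812 (log2 fold change 5.09, SE 0.24, adjusted p 2.37e-09), although the controls, at 2.38 FPKM in U251 control and 2.12 FPKM in U87 control, did not differ detectably (adjusted p 0.908) and the difference of differences missed the threshold (adjusted p 0.0719). CELSR1, a planar polarity cadherin, averaged 0.0167 FPKM in U251-1812 and 1.36 FPKM in U87-1812 (log2 fold change -6.29, SE 0.27, adjusted p 9.96e-10).

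Receptor tyrosine kinases and their ligands were called higher in number (21 of 43 tested members were called higher and 8 lower, with a median log2 fold change of 0.997). EPHA3, an ephrin receptor, had 12, 11.3 and 12.3 FPKM in U251-1812, against 0.0488, 0.00894 and 0.0334 FPKM in U87-1812 (log2 fold change 8.59, SE 0.23, adjusted p 2.54e-11). IGF1R had 8.13, 9.48 and 8.88 FPKM in U251-1812, against 1.78, 1.37 and 1.34 FPKM in U87-1812 (log2 fold change 2.57, SE 0.13, adjusted p 4.89e-09). PDGFD, a platelet-derived growth factor, averaged 2.54 FPKM in U251-1812 and 0.00573 FPKM in U87-1812, while the receptor PDGFRB was lower, at 0.187 FPKM in U251-1812 and 5.79 FPKM in U87-1812 (log2 fold change -4.93, SE 0.22, adjusted p 1.78e-09). HGF, the ligand of MET, had 0, 0 and 0.00693 FPKM in U251-1812, against 2.82, 3.09 and 3.77 FPKM in U87-1812, and EREG, a ligand of the EGF receptor, had 0.0226, 0.0241 and 0.0946 FPKM in U251-1812, against 14.7, 10.2 and 10.5 FPKM in U87-1812 (log2 fold change -7.92, SE 0.31, adjusted p 4.15e-10). VEGFA had 12, 9.12 and 9.31 FPKM in U251-1812, against 35.7, 37.8 and 41.3 FPKM in U87-1812 (log2 fold change -1.91, SE 0.12, adjusted p 4.69e-08).

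Binders of insulin-like growth factors differed strongly by gene (3 of 10 tested members were called higher and 2 lower, with a median log2 fold change of -0.12). IGFBP2 had 20.2, 23 and 20.4 FPKM in U251-1812, against 0.0406, 0.0744 and 0.124 FPKM in U87-1812 (log2 fold change 8.07, SE 0.21, adjusted p 2.31e-11). IGFBP7 had 348, 373 and 361 FPKM in U251-1812, against 52.9, 44.6 and 46.4 FPKM in U87-1812 (log2 fold change 2.92, SE 0.11, adjusted p 2.61e-10). IGFBP6 was lower, with 70.6, 67.3 and 66.9 FPKM in U251-1812, against 227, 240.3 and 215 FPKM in U87-1812 (log2 fold change -1.73, SE 0.095, adjusted p 9.7e-09), a narrower difference than in controls (log2 difference 1.33, SE 0.19, adjusted p 0.00891). IGFBP5 was at 12.4, 17 and 14.8 FPKM in U251-1812, against 1.64, 0.0727 and 0.181 FPKM in U87-1812, where replicate 1 of U87-1812 exceeded the other two (log2 fold change 4.55, SE 0.61, adjusted p 2.86e-05). Without that library the log2 fold change of IGFBP5 was 6.91 (adjusted p 6.13e-15).

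In the Notch, hedgehog and BMP pathways 18 of 40 tested members were called higher and 8 lower, with a median log2 fold change of 0.70. HES4 and HES1, targets of Notch, were higher: HES4 had 43.4, 46.4 and 43.8 FPKM in U251-1812, against 0.0575, 0 and 0.131 FPKM in U87-1812, a ratio of 766-fold (95% counting interval 262 to 3719), and HES1 had 8.11, 8.80 and 7.98 FPKM in U251-1812, against 0.874, 0.457 and 0.356 FPKM in U87-1812 (log2 fold change 3.87, SE 0.26, adjusted p 6.68e-08). The Notch ligand JAG1 averaged 9.04 FPKM in U251-1812 and 1.06 FPKM in U87-1812 (log2 fold change 3.10, SE 0.13, adjusted p 1.21e-09). GREM1, a secreted BMP antagonist, had 0.0654, 0.0466 and 0.0411 FPKM in U251-1812, against 74.3, 68.2 and 74.2 FPKM in U87-1812 (log2 fold change -10.44, SE 0.17, adjusted p 3.68e-12).

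In the Wnt pathway 6 of 29 tested members were called higher and 8 lower, with a median log2 fold change of -0.08. The secreted inhibitor DKK1 had 392, 305 and 309 FPKM in U251-1812, against 18.6, 9.61 and 8.98 FPKM in U87-1812 (log2 fold change 4.76, SE 0.25, adjusted p 7.2e-09), and the co-receptor LRP5 averaged 5.35 FPKM in U251-1812 and 0.0532 FPKM in U87-1812 (log2 fold change 6.64, SE 0.22, adjusted p 1.07e-10). The ligand WNT7B had 0.203, 0.149 and 0.0532 FPKM in U251-1812, against 29.5, 31.7 and 27.8 FPKM in U87-1812 (log2 fold change -7.74, SE 0.22, adjusted p 3.8e-11), the ligand WNT5A averaged 5.48 FPKM in U251-1812 and 34.8 FPKM in U87-1812 (log2 fold change -2.66, SE 0.12, adjusted p 1.67e-09), and the nuclear factor TCF7 averaged 0.215 FPKM in U251-1812 and 7.43 FPKM in U87-1812 (log2 fold change -5.10, SE 0.18, adjusted p 2.35e-10). DKK1 and LRP5 were thus among the members higher in U251-1812, and both ligands among the lower ones.

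Collagen chains were called in both directions (11 of 29 tested members were called higher and 9 lower, with a median log2 fold change of 0.56). COL4A1 and COL4A2, which form basement membrane collagen, had 8.26, 9.73 and 8.43 FPKM in U251-1812, against 0.035, 0.0361 and 0.0600 FPKM in U87-1812 (log2 fold change 7.67, SE 0.19, adjusted p 1.62e-11) and, for COL4A2, means of 9.68 FPKM in U251-1812 and 0.630 FPKM in U87-1812 (log2 fold change 3.95, SE 0.11, adjusted p 3.41e-11). COL1A1, a chain of fibrillar collagen, had 0.458, 0.291 and 0.398 FPKM in U251-1812, against 66.1, 67.3 and 67.6 FPKM in U87-1812 (log2 fold change -7.44, SE 0.16, adjusted p 1.22e-11). COL6A3 had 0.951, 1.30 and 1.32 FPKM in U251-1812, against 42.3, 44.7 and 43.5 FPKM in U87-1812 (log2 fold change -5.19, SE 0.14, adjusted p 3.12e-11).

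Basement membrane components were called in both directions too (4 of 14 tested members were called higher and 4 lower, with a median log2 fold change of -0.08). NID1, a nidogen that links laminin to collagen, averaged 9.78 FPKM in U251-1812 and 0.0795 FPKM in U87-1812 (log2 fold change 7.01, SE 0.28, adjusted p 5.69e-10), and its paralogue NID2 averaged 0.0917 FPKM in U251-1812 and 6.62 FPKM in U87-1812 (log2 fold change -6.16, SE 0.26, adjusted p 8.81e-10). LAMA5 had 5.07, 5.08 and 4.40 FPKM in U251-1812, against 3.64, 1.42 and 1.26 FPKM in U87-1812 (log2 fold change 1.21, SE 0.30, adjusted p 0.00342), and without U87-1812 replicate 1, the highest of the U87 libraries, its log2 fold change was 1.86 (adjusted p 6.02e-11).

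Among matrix glycoproteins 10 of 36 tested members were called higher and 14 lower, with a median log2 fold change of -0.61. THBS1, thrombospondin 1, had 169.6, 165 and 146 FPKM in U251-1812, against 1.97, 2.61 and 3.19 FPKM in U87-1812 (log2 fold change 5.96, SE 0.18, adjusted p 5.8e-11). FN1, fibronectin, had 9.42, 9.90 and 9.56 FPKM in U251-1812, against 98.3, 84.8 and 84.6 FPKM in U87-1812 (log2 fold change -3.20, SE 0.11, adjusted p 1.88e-10). LUM, the proteoglycan lumican, averaged 0.469 FPKM in U251-1812 and 15 FPKM in U87-1812 (log2 fold change -4.98, SE 0.24, adjusted p 3.1e-09), and MFAP2, a microfibril protein, 0.0747 FPKM in U251-1812 and 6.49 FPKM in U87-1812 (log2 fold change -6.39, SE 0.27, adjusted p 1.14e-09).

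The integrins, receptors for this matrix, were called in both directions (5 of 16 tested members were called higher and 6 lower, with a median log2 fold change of -0.60). ITGA6 and ITGB4, partners in the laminin receptor of hemidesmosomes, were both higher: ITGA6 had 11.4, 12.4 and 12.9 FPKM in U251-1812, against 0.124, 0.202 and 0.186 FPKM in U87-1812 (log2 fold change 6.16, SE 0.17, adjusted p 2.8e-11), and ITGB4 had 11.8, 11.8 and 10.7 FPKM in U251-1812, against 0.143, 0.148 and 0.141 FPKM in U87-1812 (log2 fold change 6.31, SE 0.15, adjusted p 1.62e-11). ITGA5, a subunit of the fibronectin receptor, had 36.5, 37.9 and 31.5 FPKM in U251-1812, against 123, 127 and 109 FPKM in U87-1812 (log2 fold change -1.75, SE 0.11, adjusted p 4.09e-08), and ITGB3 averaged 8.85 FPKM in U251-1812 and 52.6 FPKM in U87-1812 (log2 fold change -2.56, SE 0.15, adjusted p 1.4e-08). ITGA11, a collagen receptor subunit, had 0.0237, 0.0761 and 0.0622 FPKM in U251-1812, against 4.42, 4.77 and 4.50 FPKM in U87-1812 (log2 fold change -6.39, SE 0.22, adjusted p 1.88e-10). ITGA7 averaged 2.70 FPKM in U251-1812 and 12.7 FPKM in U87-1812 (log2 fold change -2.23, SE 0.17, adjusted p 2.32e-07).

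Metalloproteinases, their inhibitors and plasminogen activators were called lower more often than the background share (5 of 32 tested members were called higher and 15 lower, with a median log2 fold change of -0.87). MMP2, a gelatinase, had 24.0, 32.0 and 27.4 FPKM in U251-1812, against 425, 482 and 445 FPKM in U87-1812 (log2 fold change -4.01, SE 0.14, adjusted p 1.65e-10). TIMP3, an inhibitor held in the matrix, had 1.15, 1.21 and 0.691 FPKM in U251-1812, against 25.4, 22.4 and 21.5 FPKM in U87-1812 (log2 fold change -4.49, SE 0.18, adjusted p 5.71e-10). SERPINB2, an inhibitor of plasminogen activators, averaged 0.104 FPKM in U251-1812 and 22.9 FPKM in U87-1812 (log2 fold change -7.71, SE 0.31, adjusted p 6.05e-10). ADAM19 was higher, at 20.5 FPKM in U251-1812 and 4.68 FPKM in U87-1812 (log2 fold change 2.13, SE 0.17, adjusted p 2.47e-07), as was PLAT, tissue plasminogen activator (log2 fold change 1.83, SE 0.37, adjusted p 0.000738, and log2 fold change 2.70 without U87-1812 replicate 1).

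Chemokines and cytokines of the NF-kB pathway were divided (8 of 29 tested members were called higher and 7 lower, with a median log2 fold change of 0.19). Beside CXCL8, the neutrophil chemokine CXCL3 had 6.89, 10.3 and 11.6 FPKM in U251-1812, against 2.40, 1.01 and 1.12 FPKM in U87-1812 (log2 fold change 2.67, SE 0.30, adjusted p 6.56e-06), and IL6 had 5.83, 8.03 and 7.77 FPKM in U251-1812, against 2.11, 0.881 and 1.28 FPKM in U87-1812 (log2 fold change 2.35, SE 0.27, adjusted p 8.84e-06). CCL2, a monocyte chemokine, had 4.64, 3.75 and 3.27 FPKM in U251-1812, against 48.5, 33.7 and 32.8 FPKM in U87-1812 (log2 fold change -3.29, SE 0.18, adjusted p 1.14e-08). CSF3 had 0.0872, 0.217 and 0.213 FPKM in U251-1812, against 75.7, 24.3 and 21.7 FPKM in U87-1812 (log2 fold change -7.85, SE 0.63, adjusted p 2.93e-07), and complement C3 had 2.85, 6.05 and 5.38 FPKM in U251-1812, against 78.6, 26.0 and 24.3 FPKM in U87-1812 (log2 fold change -3.17, SE 0.42, adjusted p 2.65e-05). At CSF3 and C3 replicate 1 of U87-1812 was far above the other two. Without that library the log2 fold change was -7.04 for CSF3 (adjusted p 7.27e-16) and -2.40 for C3 (adjusted p 8.4e-10), and 14 members were called higher in place of 8.

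Within the interleukin-1 family 4 of 15 tested members were called higher and 7 lower, with a median log2 fold change of -0.07. IL18 had 32.5, 30.3 and 29.6 FPKM in U251-1812, against 0.0493, 0.0226 and 0.0281 FPKM in U87-1812 (log2 fold change 9.73, SE 0.22, adjusted p 1.24e-11), and IL1RN, the receptor antagonist, had 0.0396, 0 and 0.0830 FPKM in U251-1812, against 25.5, 20.9 and 18.8 FPKM in U87-1812 (log2 fold change -8.95, SE 0.31, adjusted p 1.57e-10). IL1B averaged 1.14 FPKM in U251-1812 and 5.68 FPKM in U87-1812 (log2 fold change -2.31, SE 0.33, adjusted p 4.78e-05). The acute-phase gene SAA1 had 0.999, 2.52 and 2.09 FPKM in U251-1812, against 483, 2.57 and 1.65 FPKM in U87-1812 (log2 fold change -6.43, SE 1.76, adjusted p 0.00608), and this call rested on 1 library: without U87-1812 replicate 1 the log2 fold change was -0.19 (adjusted p 0.692), and without both libraries numbered 1 it was 0.12 (adjusted p 0.781).

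Few genes of mitosis were called between the lines. On the mitosis list 0 of 38 tested members were called higher and 1 lower, with a median log2 fold change of -0.12, KIF20A being the lower one (log2 fold change -1.04, SE 0.12, adjusted p 1e-05). On the DNA replication list 1 of 44 tested members were called higher and 7 lower, with a median log2 fold change of -0.35. Its share called lower was near the 15.8% of all genes. Summed levels did not overlap on either list. They were 1243 to 1294 FPKM in U251-1812 and 1591 to 1995 FPKM in U87-1812 for replication. For mitosis they were 1347 to 1483 FPKM in U251-1812 and 1649 to 1771 FPKM in U87-1812. MCM6, a helicase subunit, had 19.4, 20.2 and 20.4 FPKM in U251-1812, against 90.4, 69.1 and 69.3 FPKM in U87-1812 (log2 fold change -1.92, SE 0.12, adjusted p 2.88e-08). GMNN, the replication inhibitor geminin, was the member called higher (log2 fold change 1.07, SE 0.11, adjusted p 2.26e-06). None of 13 tested genes of alkylation and mismatch repair was called (median log2 fold change -0.12).

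GDF15 and GADD45A were higher in U251-1812, and CCNG1, ZMAT3 and PHLDA3 were lower. GDF15, a stress cytokine, had 65.9, 48.2 and 43.8 FPKM in U251-1812, against 7.76, 6.42 and 5.59 FPKM in U87-1812 (log2 fold change 3.003, SE 0.17, adjusted p 1.57e-08). GADD45A, a growth arrest gene induced by DNA damage, had 118, 111 and 110.2 FPKM in U251-1812, against 30.4, 25.6 and 26.8 FPKM in U87-1812 (log2 fold change 2.04, SE 0.10, adjusted p 4.16e-09). CCNG1, cyclin G1, had 26.5, 22 and 23.8 FPKM in U251-1812, against 66.4, 74.3 and 79.97 FPKM in U87-1812 (log2 fold change -1.60, SE 0.11, adjusted p 7.83e-08), and ZMAT3 and PHLDA3 had smaller levels too (log2 fold changes -2.003 and -1.68).

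A block of chromosome 9 around the CDKN2A tumour suppressor locus separated the lines. MTAP (ENSG00000099810, chromosome 9, 21802636 to 21937651, plus strand), a methylthioadenosine phosphorylase, had 8.26, 8.73 and 9.11 FPKM in U251-1812, against 0.00442, 0.0162 and 0.0151 FPKM in U87-1812 (log2 fold change 9.45, SE 0.21, adjusted p 1.24e-11). KLHL9, a ubiquitin ligase adaptor, had 11.8, 11.5 and 12.6 FPKM in U251-1812, against 0, 0.0205 and 0.0128 FPKM in U87-1812, a ratio of 1058-fold (95% counting interval 362 to 5134). DMRTA1 had 4.49, 5.23 and 4.89 FPKM in U251-1812, against 0, 0.0211 and 0 FPKM in U87-1812, a ratio of 628-fold (95% counting interval 173 to 5188). Further genes of the block, chosen after their values were seen, gave the same picture: FOCAD had 4.98, 4.78 and 4.97 FPKM in U251-1812, against 0, 0.00586 and 0.00731 FPKM in U87-1812, and MLLT3 had 1.66, 1.28 and 1.51 FPKM in U251-1812, against 0.0159, 0 and 0.0272 FPKM in U87-1812. CDKN2A itself was at 0.0445 FPKM or less and CDKN2B at 0.0161 FPKM or less in all 6 libraries.

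Genes on either side of the block, also chosen after their values were seen, did not share 1 pattern. RPS6, nearer the chromosome end, had 392, 352 and 416 FPKM in U251-1812, against 313, 388 and 401 FPKM in U87-1812 (adjusted p 0.578), and on the other side ELAVL2 was called higher, averaging 0.991 FPKM in U251-1812 and 0.318 FPKM in U87-1812 (log2 fold change 1.65, SE 0.30, adjusted p 0.000345). IZUMO3, beyond ELAVL2, had 0.847, 0.266 and 0.104 FPKM in U251-1812, against 0 FPKM in each library of U87-1812, with 24 counts over the U251-1812 group, too few to be tested. TUSC1, farther along, was high in U87, with 0.0943, 0 and 0 FPKM in U251-1812, against 11.1, 9.68 and 9.29 FPKM in U87-1812 (log2 fold change -8.09, SE 0.42, adjusted p 5.37e-09). RNA levels alone do not show the copy number of these genes. Elsewhere in the retinoblastoma pathway CDK4 had 45.1, 51.1 and 52.1 FPKM in U251-1812, against 132, 157 and 145 FPKM in U87-1812 (log2 fold change -1.54, SE 0.11, adjusted p 8.35e-08), and CCND1, mentioned for its null result, did not pass (adjusted p 0.374).

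Glycolytic genes were lower in U251-1812 (1 of 25 tested members were called higher and 10 lower, with a median log2 fold change of -0.86), with controls at 1 higher and 10 lower of 25. LDHA (ENSG00000134333, chromosome 11, 18394560 to 18408425, plus strand), which turns pyruvate into lactate, had 7.83, 6.60 and 7.70 FPKM in U251-1812, against 692, 779.9 and 782 FPKM in U87-1812 (log2 fold change -6.66, SE 0.15, adjusted p 1.39e-11), close to the difference in controls (log2 fold change -6.31, adjusted p 2.72e-05). LDHB, the other major lactate dehydrogenase subunit, had 62.4, 59.6 and 67.1 FPKM in U251-1812, against 125, 167 and 174 FPKM in U87-1812 (log2 fold change -1.29, SE 0.13, adjusted p 2.29e-06). ALDOC, aldolase C, averaged 0.275 FPKM in U251-1812 and 12.2 FPKM in U87-1812 (log2 fold change -5.46, SE 0.25, adjusted p 2.27e-09). SLC2A1, the glucose transporter, was the member called higher, with 41.4, 39.2 and 33.5 FPKM in U251-1812, against 7.60, 14.9 and 14.6 FPKM in U87-1812 (log2 fold change 1.63, SE 0.21, adjusted p 1.83e-05). In a limma fit on the deposited FPKM, which are not rescaled by TMM factors, 5 members were called lower in place of 10.

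Hypoxia-inducible genes outside glycolysis were likewise more often lower (2 of 24 tested members were called higher and 9 lower, with a median log2 fold change of -0.75). CA12, a membrane carbonic anhydrase, had 0.304, 0.276 and 0.212 FPKM in U251-1812, against 40.2, 38.1 and 38.0 FPKM in U87-1812 (log2 fold change -7.18, SE 0.14, adjusted p 7.91e-12). EPAS1, the hypoxia factor HIF-2 alpha, had 11.4, 11.6 and 11.1 FPKM in U251-1812, against 78.4, 54.0 and 51.3 FPKM in U87-1812 (log2 fold change -2.42, SE 0.15, adjusted p 3.07e-08). ANGPTL4 was higher, with 26.2, 34.2 and 27.7 FPKM in U251-1812, against 1.35, 2.68 and 2.61 FPKM in U87-1812 (log2 fold change 3.74, SE 0.21, adjusted p 1.37e-08), and the hydroxylase EGLN3 too (log2 fold change 4.58).

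Mitochondrially encoded transcripts were lower in U251-1812 (0 of 13 tested members were called higher and 7 lower, with a median log2 fold change of -1.02). MT-CO3, a subunit of cytochrome oxidase, had 1547, 1944 and 1792 FPKM in U251-1812, against 7239, 5872 and 5650.5 FPKM in U87-1812 (log2 fold change -1.82, SE 0.14, adjusted p 2.16e-07). MT-CO2 had 2711, 3164 and 2948 FPKM in U251-1812, against 6234, 5966 and 5743 FPKM in U87-1812 (log2 fold change -1.02, SE 0.12, adjusted p 7.24e-06). Counts on mitochondrial genes were 1.25% to 1.74% of the total in U251-1812 and 2.78% to 2.99% in U87-1812. Control libraries ranged from 1.80% to 3.36% in U251 and from 1.22% to 3.62% in U87, no mitochondrial transcript was called between them, and the part of library preparation in this difference was not tested.

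Further housekeeping groups are described by their counts. Of ribosomal protein genes 0 of 48 tested members were called higher and 8 lower, with a median log2 fold change of -0.49. The share called lower was near the 15.8% of all genes. RPL9 stood out with 8.10, 8.40 and 8.88 FPKM in U251-1812, against 56.3, 89.2 and 82.6 FPKM in U87-1812 (log2 fold change -3.16, SE 0.16, adjusted p 5.24e-09). Ribosomal protein genes have many processed copies in the genome, and how the counting divided reads among them is not stated. FTH1, the ferritin heavy chain, had 1133, 1558 and 1699 FPKM in U251-1812, against 4695, 4650.3 and 4444 FPKM in U87-1812 (log2 fold change -1.64, SE 0.16, adjusted p 1.49e-06). The metal-binding MT2A had 378, 493 and 528 FPKM in U251-1812, against 2241, 1499 and 1454 FPKM in U87-1812 (log2 fold change -1.88, SE 0.18, adjusted p 1.35e-06), and 3 of 4 tested metallothioneins were called lower. In cholesterol synthesis 4 of 23 tested members were called higher and 3 lower, with a median log2 fold change of -0.11, with the feedback regulator INSIG1 lower (log2 fold change -1.82, SE 0.13, adjusted p 9.85e-08).

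Chaperone-mediated autophagy, the route the hairpin addresses, held few called genes (2 of 25 tested members were called higher and 3 lower, with a median log2 fold change of 0.01). Single members ranged from a log2 fold change of -1.52 to 3.74. Those named below are among the 3 called lower, and the 2 called higher are left unnamed here. The summed level was 2856 to 3424 FPKM in U251-1812 and 3732 to 3827 FPKM in U87-1812, without overlap. HSP90AA1, a chaperone, had 269, 279 and 308 FPKM in U251-1812, against 625, 637 and 687 FPKM in U87-1812 (log2 fold change -1.18, SE 0.11, adjusted p 1.7e-06), and CTSA, the lysosomal cathepsin A, had 31.7, 36.3 and 33.7 FPKM in U251-1812, against 85.5, 78.4 and 72.4 FPKM in U87-1812 (log2 fold change -1.21, SE 0.10, adjusted p 5.37e-07). For macroautophagy 2 of 35 tested members were called higher and 2 lower, with a median log2 fold change of 0.01. ULK2, an initiating kinase, had 1.99, 2.23 and 1.88 FPKM in U251-1812, against 0.00651, 0 and 0.00743 FPKM in U87-1812, a ratio of 463-fold (95% counting interval 128 to 3830.0), while its paralogue ULK1 was lower, at 2.13 FPKM in U251-1812 and 5.6 FPKM in U87-1812 (log2 fold change -1.39, SE 0.14, adjusted p 1.87e-06).

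Lysosomal genes held a few very large differences among many small ones (6 of 43 tested members were called higher and 10 lower, with a median log2 fold change of -0.23). CTSK, the collagen-degrading cathepsin K, had 1.70, 2.19 and 2.19 FPKM in U251-1812, against 304, 226 and 231 FPKM in U87-1812 (log2 fold change -6.96, SE 0.17, adjusted p 1.86e-11). CTSL had 111, 102 and 99.5 FPKM in U251-1812, against 398, 440.3 and 464 FPKM in U87-1812 (log2 fold change -2.05, SE 0.11, adjusted p 5.94e-09). CTSZ went the other way, with 20.2, 21.2 and 18.9 FPKM in U251-1812, against 0.188, 0.115 and 0 FPKM in U87-1812 (log2 fold change 7.53, SE 0.31, adjusted p 6.75e-10, and log2 fold change 8.22 without U87-1812 replicate 1), as did NEU1, a sialidase (log2 fold change 2.21, SE 0.14, adjusted p 3.33e-08).

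Cancer-testis antigens, normally confined to germ cells, were present in line-specific sets (7 of 10 tested members were called higher and 2 lower, with a median log2 fold change of 6.19). Only 10 of 45 members passed the filter on low counts, so the count covers members with reads in at least 1 line, and the median was 5.23 when members with 3 counts or fewer in a group were taken at their count ratio or, at 0 counts, their bound. MAGEA6 had 57.5, 53.9 and 52.5 FPKM in U251-1812, against 0, 0.126 and 0.197 FPKM in U87-1812 (log2 fold change 8.98, SE 0.28, adjusted p 6.85e-11), and MAGEA3 had 40.7, 41.3 and 42.5 FPKM in U251-1812, against 0, 0.0995 and 0.165 FPKM in U87-1812. These paralogues share reads, and their separate values are uncertain. SAGE1 had 0 FPKM in each library of U251-1812, against 4.76, 2.83 and 2.71 FPKM in U87-1812, at least 152-fold lower.

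The largest differences of single genes were near on-off. ELOVL2, a fatty acid elongase, had 5.03, 5.89 and 5.47 FPKM in U251-1812, against 0, 0 and 0.0184 FPKM in U87-1812. EXD2 had 7.03, 6.15 and 5.01 FPKM in U251-1812, against 0.0103, 0 and 0.0117 FPKM in U87-1812, and SFTA1P, a pseudogene transcript, had 10.2, 8.77 and 10.6 FPKM in U251-1812, against 0, 0.0185 and 0 FPKM in U87-1812. SPANXB1, which has near-identical copies, had 14.9, 17 and 16 FPKM in U251-1812, against 0 FPKM in each library of U87-1812. On the U87 side MYL9, a myosin light chain, had 0, 0.0245 and 0.0481 FPKM in U251-1812, against 56.6, 63.7 and 54.5 FPKM in U87-1812. TFPI2, a serine protease inhibitor, had 0.132, 0.169 and 0.221 FPKM in U251-1812, against 539, 241 and 243 FPKM in U87-1812 (log2 fold change -10.90, SE 0.45, adjusted p 7.28e-10), PTGER2, a prostaglandin E2 receptor, had 0 FPKM in each library of U251-1812, against 10.2, 10.8 and 9.67 FPKM in U87-1812, and ARSI, an arylsulfatase, had 0.0200, 0 and 0.0210 FPKM in U251-1812, against 45.2, 37.6 and 34.5 FPKM in U87-1812.

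Genes with no count in one line were found on both sides. Taking genes that averaged 1 FPKM or more where present, 107 genes had counts in U251-1812 and none in the 3 U87-1812 libraries, 37 of them protein-coding. In the other direction 74 genes had counts in U87-1812 and none in U251-1812, 21 of them protein-coding. Of these, 54 and 43 were also at 0 in all control libraries of the line that lacked them. A count of 0 over a group allows up to 0.067 CPM in U251-1812 and 0.0649 in U87-1812.

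Median line differences varied between chromosomes. Chromosome 18 had a median log2 fold change of -1.10 over 221 tested genes, with 53.4% called lower. Chromosome 12 had a median of -0.55 and chromosome 9 one of -0.49. Chromosome 6 had 37.0% of 811 genes called higher and a median of 0.62, and chromosomes 4, 1 and 7 had medians of 0.42, 0.38 and 0.35. Between controls the medians were -0.58 for chromosome 18, -0.43 for chromosome 12, -0.33 for chromosome 9, 0.55 for chromosome 6, 0.17 for chromosome 1 and 0.34 for chromosome 7, and chromosome 4 was near 0 there, at 0.019. Copy number was not measured, and its part in these medians was not tested.

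**Figure D3:**
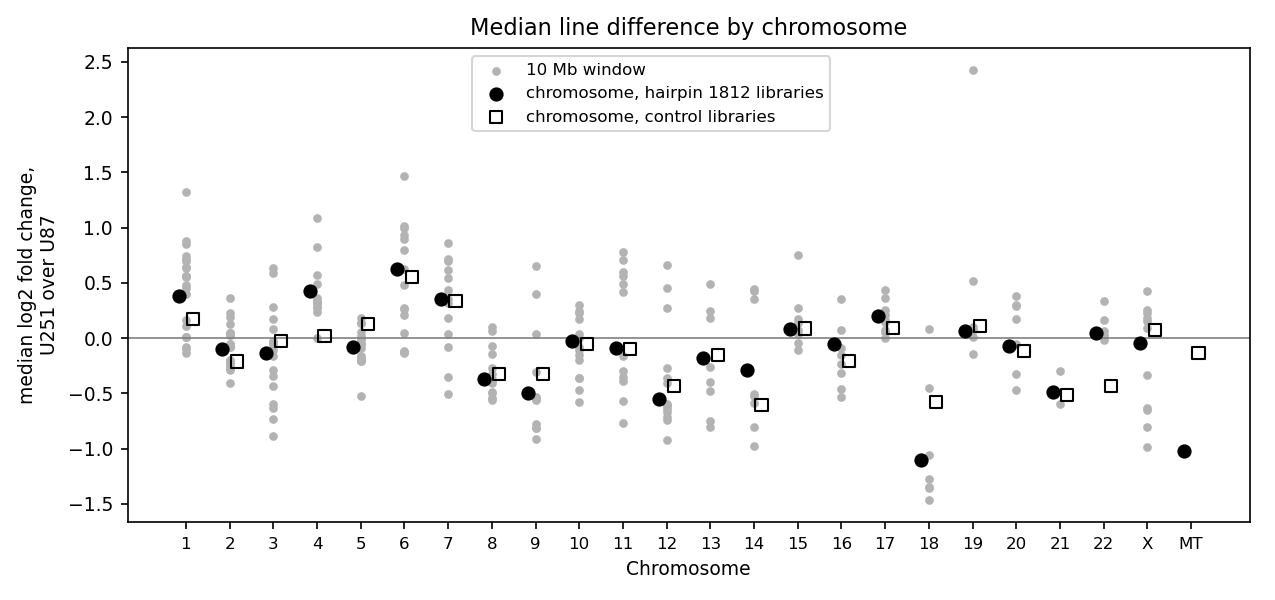
Median log2 fold change, U251 over U87, of tested genes on each chromosome, with hairpin 1812 (black circles) and in controls (open squares), and of 10 Mb windows with the hairpin (grey points). Chromosome 18 lies lowest at -1.10 among the nuclear chromosomes and chromosome 6 highest at 0.62, and the highest window, on chromosome 19, has a median of 2.43.

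The window with the highest median, singled out after its values were seen, was 20 to 30 Mb of chromosome 19, which holds a cluster of KRAB zinc finger genes, a family of repressors of transposable elements. Of its 43 tested genes 26 were called higher and 3 lower, and 18 of its 23 ZNF genes were higher. Median levels over the window were 1.31, 1.56 and 1.55 FPKM in U251-1812, against 0.231, 0.149 and 0.196 FPKM in U87-1812. The controls were further apart, with 1.15, 1.68 and 1.70 FPKM in U251 control and 0.0410, 0.0106 and 0.0145 FPKM in U87 control. The median log2 fold change was 2.43 over 43 genes with the hairpin and 6.14 over the 40 of them tested in controls.

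By the median levels of the window the gap differed from controls on the U87 side, and the window as a whole was not tested. Most of its genes did not pass the test of the difference. Those named below were picked after their values were seen. ZNF675 had 3.67, 3.86 and 4.46 FPKM in U251-1812, against 0.890, 0.546 and 0.810 FPKM in U87-1812, with 3.96 FPKM in U251 control and 0.0429 FPKM in U87 control (log2 difference -4.11, SE 0.58, adjusted p 0.00891). ZNF91 had 2.02, 2.01 and 2.46 FPKM in U251-1812, against 0.231, 0.188 and 0.206 FPKM in U87-1812, with 2.82 FPKM in U251 control and 0.0125 FPKM in U87 control (log2 difference -4.35, SE 0.68, adjusted p 0.0115). Neighbours differed: ZNF43 had 1.94, 2.03 and 2.27 FPKM in U251-1812, against 0, 0.00681 and 0.0170 FPKM in U87-1812, with 2.34 FPKM in U251 control and 0.00984 FPKM in U87 control (log2 difference 0.19, SE 0.96, adjusted p 0.968). ZNF714 and ZNF493 passed as well (log2 differences -2.39 and -4.36, adjusted p 0.0115 and 0.0272). ZNF724 and IPO5P1 had positive log2 differences, 1.86 and 2.98, that did not pass (adjusted p 0.61 and 0.312). In U87 control ZNF675 was at 0.0992 FPKM in replicate 1 and at 0.0204 and 0.00912 FPKM in replicates 2 and 3. The genes of the cluster are related in sequence, so part of their reads may be shared.

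Most line differences were also present between the control libraries. The hairpin comparison and the control comparison share no library. Over 15041 genes tested in both, their log2 fold changes correlated at r 0.92, a description across genes, which are not independent. Of genes called higher with the hairpin 1670 of 2649 (63.0%) were called higher in controls, and 1552 of 2284 lower ones (68.0%) were called lower. In reverse, 83.0% and 77.8% of the control calls were called with the hairpin. Genes called in opposite directions numbered 8: LTF, ZNF423, RARRES2, TPD52L1, SUGCT, C11orf96, LINC00910 and RPLP0P2. LTF, lactoferrin, had 0.647, 0.311 and 0.356 FPKM in U251-1812, against 11.8, 0.825 and 0.698 FPKM in U87-1812, and RARRES2, the chemokine chemerin, had 0.473, 0.866 and 0.496 FPKM in U251-1812, against 13.1, 0.924 and 0.845 FPKM in U87-1812, so both were far higher in replicate 1 of U87-1812 than in the other two. Without that library LTF had a log2 fold change of -0.79 (adjusted p 0.0394), RARRES2 one of -0.53 (adjusted p 0.219), TPD52L1 one of -0.45 (adjusted p 0.305) and C11orf96 one of 0.95, so none of these 4 was called, and the other 4 were. Of those, ZNF423 and LINC00910 were at low levels, with means of 0.0421 and 0.257 FPKM in U251-1812 and 0.134 and 0.111 FPKM in U87-1812. SUGCT was at 0.809 FPKM in U87 control replicate 1 and at 4.06 and 4.09 FPKM in replicates 2 and 3, with 0.889 FPKM in U251 control replicate 1.

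Testing the difference itself, 285 of 16825 genes were called (1.69%), 129 with a more positive line difference under the hairpin and 156 with a more negative one. This count was unstable. Leaving out 1 of the 12 libraries gave 23 to 1092 more positive and 43 to 889 more negative genes, the highest without U87 control replicate 1. Control replicate 1 of each line differed from control replicates 2 and 3 in the mean exonic length of the counted genes, at 5.90 and 5.61 kb against 6.53 to 6.77 kb, where the hairpin libraries were at 5.77 to 5.92 kb, and the part of this in the count was not tested. With control replicate 1 alone 293 and 678 genes were called, and without both of them 1158 and 852.

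**Figure D4:**
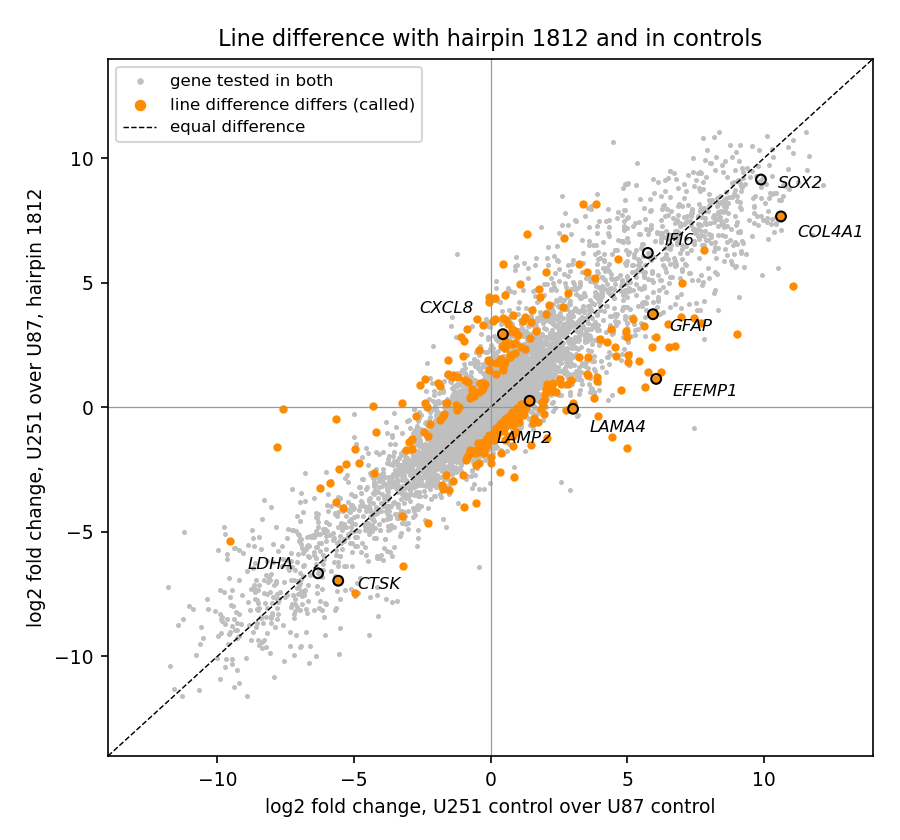
Log2 fold change of U251 over U87 with hairpin 1812 (vertical axis) against that in controls (horizontal axis) for 15041 genes tested in both, with genes whose line differences differ in orange and 10 genes labelled. Most genes lie along the dashed line of equal difference, LAMA4, EFEMP1 and LAMP2 lie below it and CXCL8 above it.

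Of the named genes, 6 passed the test of the difference in all 19 alternatives: EFEMP1, LAMA4 and ITGB8, whose line difference was more negative with the hairpin, and CXCL8, IGFBP6 and BASP1, whose difference was more positive. Another 16 named genes passed with all 12 libraries and in 7 to 12 of the 19 alternatives. ITGB8, an integrin that activates TGF-beta, had 4.84, 4.57 and 4.6 FPKM in U251-1812, against 0.983, 0.609 and 0.672 FPKM in U87-1812, and averaged 8.09 FPKM in U251 control and 0.425 FPKM in U87 control (log2 difference -1.64, SE 0.24, adjusted p 0.0109). BASP1 averaged 3.33 FPKM in U251 control and 143 FPKM in U87 control (log2 difference 1.37, SE 0.20, adjusted p 0.0109). The level of BASP1 was higher in both hairpin groups than in the controls of its line, and more so in U251.

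Markers of other cell types were at low levels. The summed markers of microglia were 1.02 to 1.23 FPKM in U251-1812 and 3.93 to 4.78 FPKM in U87-1812, with AIF1 and TYROBP at 0 in all 6 libraries. Oligodendrocyte markers summed to 0.0357 to 0.0561 FPKM in U251-1812 and 0.192 to 0.305 FPKM in U87-1812, and T cell markers to 0 to 0.176 FPKM in U251-1812 and 1.62 to 3.02 FPKM in U87-1812, with CD3E at 0 in each. On each of these 2 lists 1 member was tested, and it was called lower. The log2 fold change was -3.86 for the oligodendrocyte member and -8.64 for the T cell member. The latter was -5.61 when taken at its count ratio or bound. Endothelial markers summed to 1.38 to 1.98 FPKM in U251-1812 and 1.30 to 1.93 FPKM in U87-1812, with CLDN5 at 0. These similar sums hid differences of single members. Of 4 tested endothelial markers 1 was called higher and 2 lower, with log2 fold changes from -5.59 to 3.22. Epithelial markers summed to 10.7 to 14.3 FPKM in U251-1812 and 2.64 to 3.23 FPKM in U87-1812. Of 3 tested members only KRT18 was called higher, at 10.6 FPKM in U251-1812 and 0.297 FPKM in U87-1812 (log2 fold change 5.10, SE 0.27, adjusted p 8.16e-09). The median log2 fold change of these 3 was -0.57 and the lowest -0.997. CDH1, the defining epithelial cadherin, stayed at 0.144 FPKM or less. CSF1R, the receptor of a macrophage growth factor, was lower, at 0.261 FPKM in U251-1812 and 3.41 FPKM in U87-1812 (log2 fold change -3.70, SE 0.27, adjusted p 1.12e-07).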

How the data were processed

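RNA was measured by sequencing of rRNA-depleted total RNA, with random primers and a dUTP-marked second strand, per the labels' protocols. The authors deposited 1 table of 60612 genes with whole-number read counts and FPKM for 15 libraries. The submitters' processing notes name bcl2fastq 2.17.1.14, cutadapt 1.9.1, HISAT2 2.0.1, HTSeq 0.6.1, bedtools 2.17.0, DESeq2 and build GRCh38. The strand setting of the counting and the annotation release are not given in the sources used here, so reads of a gene and its antisense partner may not be told apart. Dividing the deposited counts by the total and the listed exonic length returned the deposited FPKM to within 0.005. The labels' protocols name more than 1 RNA extraction method and sequencer without saying which library had which.

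Counts of the 6 libraries were fitted with edgeR 4.0.16 (R 4.3.3; TMM, the default filter on low counts, the quasi-likelihood test, Benjamini-Hochberg adjustment over all tested genes), with no replicate block. The control comparison was fitted on its own 6 libraries, and the difference of the line differences on all 12. DESeq2 1.42.0, limma 3.58.1 on log2(FPKM + 0.1) and log2(FPKM + 1), other scalings and filters, all 15 libraries, a replicate block and leaving out each library were alternatives, with 3 more added after seeing the data. Positions are those the authors deposited with the counts. Gene types, such as protein-coding and lincRNA, come from GENCODE 29, which holds 58394 of the IDs, and promoters from RefSeq (GRCh38.p14).

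The genes named were LAMP2, the 4 marker genes, the 15 largest and 15 smallest log2 fold changes at 5 FPKM or more without overlap, the 5 called genes in each direction with the largest difference in FPKM, and up to 4 called members per direction of each of 42 lists, at 1 FPKM or more. Not every gene so chosen is described. The comparison, its markers and the lists were chosen with earlier results of these data known. Genes of chromosome Y and XIST, and some other genes and 1 list, are not reported here. For a gene with no count in a group, a fold change is a bound computed at 3 counts over the group, and counting intervals are 95%.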

Additional observations from a re-analysis of the deposited data

Results flagged for a closer look

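A difference between the line differences, tested as the hairpin 1812 comparison minus the control comparison in 1 fit of 12 libraries, singled out 22 of 249 named genes at an adjusted p under 0.05 in edgeR, with no explanation weighed here. The line difference was more negative with the hairpin in 13 of them. These were EFEMP1 (-4.94), ITGA11 (-3.20), LAMA4 (-3.10), FAT2 (-3.04), COL4A1 (-2.98), LAMA5 (-2.70), ITGA7 (-2.26), GFAP (-2.22), ITGB8 (-1.64), MT-CO3 (-1.59), ITGB4 (-1.51), CTSK (-1.40), LAMP2 (-1.19), with the log2 difference in brackets. It was more positive in 9 of them, PHLDA3 (1.19), ISG15 (1.28), GADD45A (1.32), IGFBP6 (1.33), HLA-F (1.34), BASP1 (1.37), ANGPTL4 (1.68), CXCL3 (2.14), CXCL8 (2.47). The direction was the same in each of 19 alternatives for all 22 genes. With control replicate 1 alone 18 of them passed, and without both control libraries numbered 1 all 22 did. The 6 genes EFEMP1, LAMA4, ITGB8, IGFBP6, BASP1 and CXCL8 passed in all 19, and the other 16 in 7 (ITGA11, LAMA5, CXCL3) to 12 (LAMP2, GADD45A). These losses came mostly from leaving out 1 library. All 16 were lost without U251-1812 replicate 2 or 3, U87-1812 replicate 2 or 3, or U251 control replicate 2 or 3. Without U251-1812 replicate 1, 14 were lost, without U87-1812 replicate 1 12, without U251 control replicate 1 4, without U87 control replicate 2 13, without U87 control replicate 3 10, and without U87 control replicate 1 none was. With control replicate 1 alone the log2 difference was -1.48 for ITGA11, -1.71 for FAT2, -1.35 for LAMA5 and -1.30 for ITGA7.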

How the results depend on the processing

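The counts of the hairpin comparison kept within 1.5 times of 2772 and 2438 genes except in limma on log2(FPKM + 1), with 1617 higher and 1097 lower. Leaving out single libraries gave 2804 to 3063 higher and 2476 to 2601 lower. In limma on the deposited FPKM the median of all genes was at a log2 fold change of 0.18 (pseudocount 0.1). The difference of the line differences was unstable: 550 and 405 genes with no filter on low counts, 411 and 328 in DESeq2, 302 and 243 with all 15 libraries in the fit, 23 to 1092 and 43 to 889 when single libraries were left out, 293 and 678 with control library 1 alone, and 1158 and 852 without both control libraries numbered 1, in each case more positive and more negative. The cause was not tested. No count of the control comparison moved by over 1.5 times in the alternatives run.

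Same-numbered hairpin libraries deviated together at r 0.05, -0.01 and 0.11, so the numbers were not taken to pair them. With the replicate block 2769 genes were called higher and 2405 lower, and the difference of the line differences gave 129 and 167. Of 249 named genes, 3 changed direction or lost the threshold in any alternative. Leaving out 1 library moved the fold change of 52 of them by over 1.5 times, and 1 of the 52, SAA1, lost its call. The log2 fold change of LAMP2 did not pass with no filter (0.24), with all 15 libraries (0.26), or without 1 of 3 libraries, in a leave-one-out range of 0.23 to 0.31. That of LAMA4 turned positive in limma (0.13 at a pseudocount of 0.1 and 0.11 at 1), without both hairpin libraries numbered 1 (0.068) and without U87-1812 replicate 1, over a leave-one-out range of -0.12 to 0.0047. That of SAA1 was 0.12 without both hairpin libraries numbered 1. Over the alternatives of the 26 list medians beyond 0.3 in size, 6 values had the other sign, all for the endothelial, oligodendrocyte and epithelial marker lists, and no value of 9 chromosome medians did.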
